A study of Mus musculus with 24 samples.

Results

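The 9 genes described here, Stat2, Irf9, Irf7, Ifit1, Ifit3, Isg15, Oasl2, Ifitm3 and Trim30a, are interferon-stimulated genes, picked by name as genes of the type I interferon response. All 9 were present in a table of 57180 genes, and all 9 were among the 16578 genes with a normalised read count of at least 10 in at least 6 libraries. The RNA came from frozen punches of frontal cortex of wild-type male C57BL/6 mice, 4 weeks old, that received 1 intraperitoneal injection a day for 28 days. The first group of 6 mice received sarcosine at 100 mg/kg, and the second received memantine at 20 mg/kg. A further 6 received both drugs at these doses, here called the combination, and 6 received vehicle. Sarcosine is N-methylglycine, which blocks the glycine transporter GlyT1, and memantine blocks the open channel of the NMDA receptor. Vehicle mice were injected like the others, so the handling is common to all groups. The labels name no batch and no pooling of animals, and p-values below measure the spread between these samples. All groups are of a single strain and sex, and each group is 6 libraries of bulk RNA, 24 in all, with 12678114 to 21844579 reads per library. Depth differed by group, with 17008198 to 21844579 reads for sarcosine and 12678114 to 19714592 for memantine. The combination had 14700861 to 15653093 and vehicle 15543738 to 17425235. The part of depth in the comparisons was not tested.

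Type I interferons are secreted proteins that bind a receptor of the subunits IFNAR1 and IFNAR2 and activate the kinases JAK1 and TYK2. These phosphorylate STAT2, which joins IRF9 in the factor ISGF3, and ISGF3 binds an element named ISRE in the promoters of the genes that interferon induces. The products bind viral RNA, modify proteins, block membrane fusion or feed back on the pathway. In the brain a low tonic level of these transcripts is known in microglia, endothelium, neurons and glia, and injury, infection and ageing raise it.

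The promoters of the members were compared for the element that ISGF3 binds. The core of the ISRE, GAAA and GAAA with 2 bases of any kind between them, was searched on both strands of the RefSeq promoter windows of the mouse build GRCm38.p6, which run from 250 bases before to 50 bases after each annotated start. It occurred in 3.44% of 32851 windows. Counted by gene, it occurred in 3.99% of 27025 genes and in 6 of the 9 members. The stretches below are printed because they hold every match of these 6 genes in the first window of each, 5′ to 3′ on the strand of the gene. Capitals mark the matches, which begin and end with TTTC where the motif lies on the other strand.
Ifit1: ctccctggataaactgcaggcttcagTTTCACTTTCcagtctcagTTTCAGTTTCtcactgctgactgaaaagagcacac
Ifit3: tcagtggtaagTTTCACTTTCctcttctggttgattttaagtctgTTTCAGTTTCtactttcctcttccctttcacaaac
Isg15: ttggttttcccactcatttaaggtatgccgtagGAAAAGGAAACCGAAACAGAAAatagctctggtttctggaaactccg
Stat2: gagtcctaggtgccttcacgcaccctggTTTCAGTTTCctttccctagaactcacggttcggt
Ifitm3: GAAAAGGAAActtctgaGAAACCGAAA
Trim30a: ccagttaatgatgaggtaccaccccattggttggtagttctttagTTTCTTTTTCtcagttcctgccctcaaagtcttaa

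On GRCm38.p6 these stretches lie at chr19:34640759-34640838 for Ifit1 and chr19:34583362-34583441 for Ifit3, both on the plus strand. The stretch of Isg15 is chr4:156200850-156200929 on the minus strand, and that of Stat2 is chr10:128270248-128270310 on the plus strand. Ifitm3 lies at chr7:141010716-141010742 and Trim30a at chr7:104465195-104465274, both on the minus strand. Ifit1 and Ifit3, neighbours on chromosome 19 that code for RNA-binding proteins, each held 2 separate matches. In Isg15 there were 3 matches that overlap one another. Both matches of Ifitm3 lie after the annotated start, at bases 3 to 12 and 20 to 29, and those printed for the other 5 genes lie before it. Trim30a has 2 annotated starts with a window each, and the second window, not printed, also held 1 match. The windows of Oasl2, Irf7 and Irf9 held no match. With a C after the second GAAA, the motif was in 0.819% of all windows, 0.944% of all genes and the same 6 members. TTCNNNGAA, the site of STAT dimers known as GAS, was in 8.30% of all windows and 9.55% of all genes. Among the members it was in Ifitm3 only, where it spans bases 14 to 22 and overlaps the second ISRE match.

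The members were expressed in every library at low to moderate levels. Per kilobase of the longest annotated transcript, Ifitm3 had the highest level at 499.8 ± 204.4 normalised counts, and Ifit3 followed at 140.5 ± 57.4 (mean ± SD over the 24 libraries). Stat2 had 105.6 ± 14.01, Isg15 82.8 ± 26.1, Irf9 70.3 ± 14.9 and Oasl2 66.5 ± 31.2 per kilobase. The lowest were Ifit1 at 44.8 ± 18.9, Irf7 at 35.9 ± 14.1 and Trim30a at 19.2 ± 4.62 per kilobase. Ifitm3 was above Ifit3 in 24 of 24 libraries, and this was the only neighbouring pair in the order whose means lay farther apart than the sum of their SDs. In bulk RNA, a change in the number of cells that express a gene and a change in the RNA per cell cannot be told apart.

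Some libraries stood apart in their tissue makeup. Markers of choroid plexus, led by the transthyretin gene Ttr, summed to 40748 normalised counts in sarcosine replicate 1, 56280 in memantine replicate 3 and 34865 in combination replicate 1, and to 105 to 1806 in the other 21. Markers of cortical excitatory neurons were present in every library, as the tissue label says, but ranged from 6967 in sarcosine replicate 1 to 59257 in vehicle replicate 1. That same sarcosine library had the highest sum of striatal markers, 27346. Member results are therefore also given without the 3 choroid-rich libraries, a choice made after the data had been seen. Olfactory bulb markers summed to 11654 in sarcosine replicate 5 and to 10459 and 11808 in memantine replicates 4 and 5. Combination replicates 5 and 6 had 14658 and 8820, and every other library had at most 4996. With vehicle the sums were 892 to 3986. The part of olfactory bulb tissue in the comparisons with vehicle was not tested.

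The transcription factors of the pathway, Stat2, Irf9 and Irf7, come first. Stat2, the subunit of ISGF3 that activates transcription, had a lowest, median and highest normalised count of 396, 466.2 and 506 in sarcosine libraries, 397, 448 and 547 with memantine, 380, 527 and 588 with the combination and 375, 429 and 505 with vehicle. It was the steadiest member: the highest of all 24 libraries was 1.57 times the lowest. Irf9, the DNA-binding subunit of ISGF3, had 171, 256 and 374 with sarcosine, 233, 285 and 318 with memantine, 174, 307 and 366 with the combination and 210, 240 and 339 with vehicle. Irf7, a factor that interferon induces and that amplifies interferon-α genes, had 55.2, 111 and 177 with sarcosine, 81.4, 95.6 and 104.9 with memantine, 72.4, 119 and 168 with the combination and 80.03, 123 and 267 with vehicle. For each of the 3 factors, all 4 groups overlapped. The narrow range of Irf7 with memantine lay within the lower part of the vehicle range, and the difference in spread was not tested.

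The effectors with RNA-binding or conjugating roles were similar in their overlap. Ifit1, which binds viral RNA that lacks host cap methylation, had a lowest, median and highest normalised count of 62.7, 126 and 262 with sarcosine, 66.4, 106 and 166 with memantine, 74.3, 109 and 173 with the combination and 58.0, 109 and 210 with vehicle. Ifit3, its partner in the IFIT complex, had 108, 224 and 521 with sarcosine, 162, 222 and 309 with memantine, 170.5, 229 and 418 with the combination and 143, 228 and 417 with vehicle. The medians of Ifit3 were nearly level while its extremes were wide, and the highest value in the series was 4.84 times the lowest. Isg15, the ubiquitin-like protein attached to other proteins, had 29.0, 56.2 and 96.8 with sarcosine, 47.6, 59.6 and 74.4 with memantine, 27.4, 61.4 and 89.9 with the combination and 41.7, 69.4 and 104.7 with vehicle. Oasl2, of the oligoadenylate synthetase family, had 107, 190.1 and 404 with sarcosine, 109, 144 and 255 with memantine, 140.4, 227 and 337 with the combination and 98.5, 198 and 476 with vehicle. Again no group of any of these 4 genes lay clear of another.

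Ifitm3 and Trim30a act at membranes and on signalling. Ifitm3, a membrane protein that hinders the fusion of viruses with endosomes, had a lowest, median and highest normalised count of 244, 321 and 558 with sarcosine, 173, 228 and 351 with memantine, 269, 357 and 501 with the combination and 209.8, 306 and 784 with vehicle. Trim30a, a TRIM protein known in mouse to restrain NF-κB signalling, had 59.6, 72.4 and 113 with sarcosine, 53.1, 57.7 and 80.7 with memantine, 64.0, 83.5 and 104.8 with the combination and 34.8, 71.8 and 84.8 with vehicle. Both genes had their lowest median with memantine and their highest with the combination, and the ranges of these 2 groups overlapped in each gene.

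**Figure D1:**
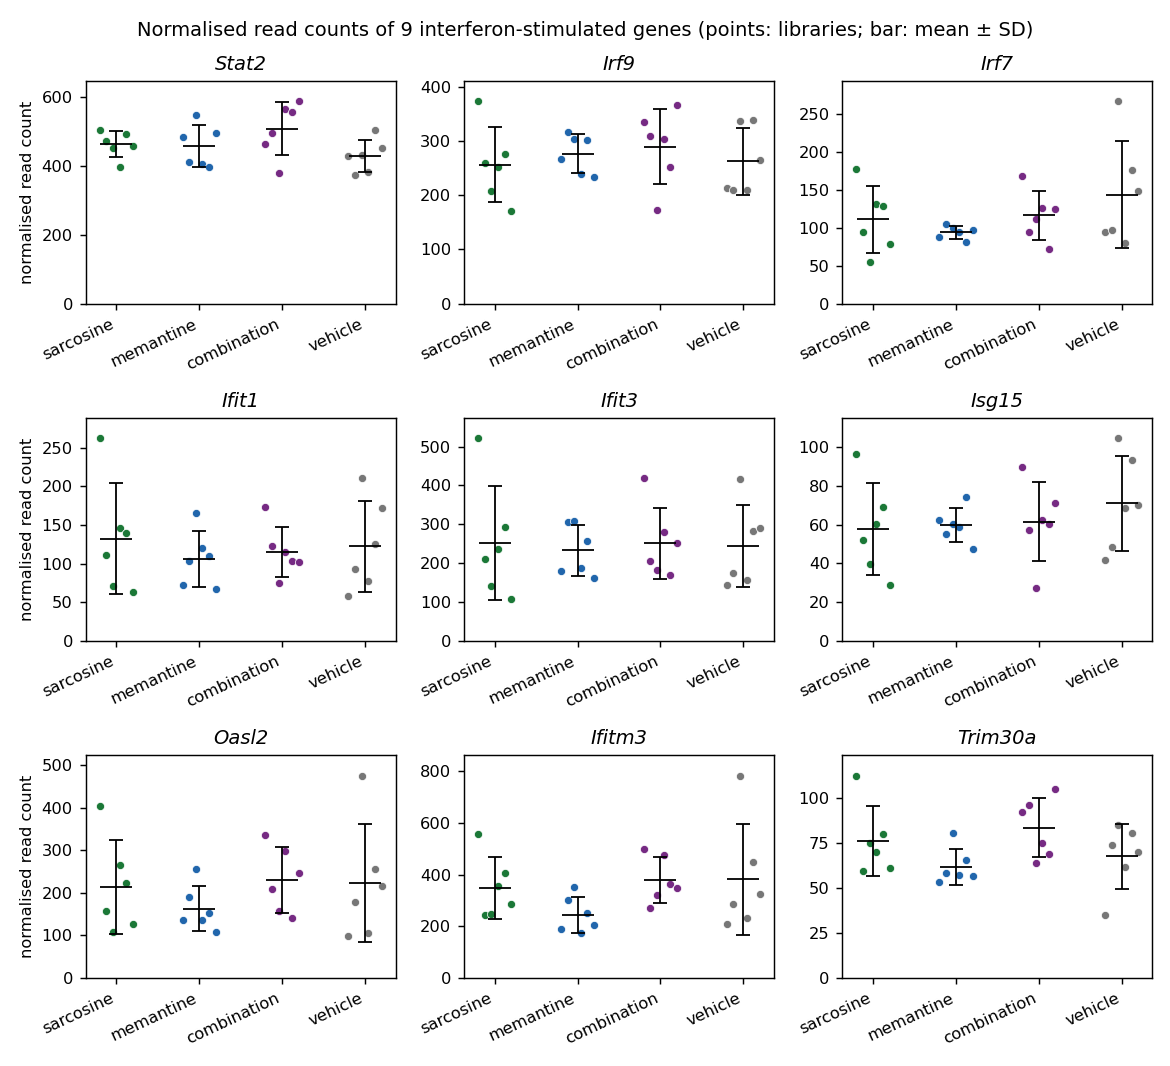
Normalised read counts (y axis, from 0) of the 9 members by group (x axis), with 1 point per library, 6 per group, and the mean ± SD as bars. The groups overlap in every panel, and sarcosine replicate 1 and vehicle replicate 3, at 404 and 476 for Oasl2, are the highest points of their groups in most panels.

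Sarcosine against vehicle asks what the glycine transport blocker does alone. None of the 9 members was called in limma at an adjusted p under 0.05 (Benjamini-Hochberg over all 16578 genes), none had an unadjusted p under 0.05, and edgeR and DESeq2 on the recovered reads also called 0, with 0 at an unadjusted p under 0.05. Over all genes limma called 1548, or 9.34%, and 22.3% had an unadjusted p under 0.05. The log2 fold changes of the members ran from -0.34 for Irf7 to 0.19 for Trim30a, with 4 above and 5 below 0. Their median was -0.031, against -0.0032 for all genes tested. The 95% intervals reached from -0.90 (Irf7) to 0.76 (Ifit1). Stat2, with the narrowest interval, changed by 0.11 (-0.099 to 0.33, adjusted p = 0.590). Without the choroid-rich libraries 0 members were called, 2 were above 0 and the median was -0.18. The median turned on single libraries: it was -0.18 without sarcosine replicate 1 and 0.15 without vehicle replicate 3.

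Memantine against vehicle asks the same of the channel blocker. limma called 0 members, with 0 at an unadjusted p under 0.05, and 2 of all genes (0.0121%). edgeR and DESeq2 also called 0 members, each with 2 at an unadjusted p under 0.05, Ifitm3 and Irf7, a level that 14.7% of all genes passed in limma. DESeq2 gave no adjusted p for 2 of the 9 members, which could therefore not be called by it. Ifitm3 averaged 245 ± 69.7 normalised counts with memantine and 381 ± 215 with vehicle (SD, n = 6 each), a log2 fold change of -0.52 in limma (95% interval -1.08 to 0.032, adjusted p = 0.375). All 6 memantine libraries lay below the vehicle mean, which vehicle replicate 3 raised with 784. Irf7 averaged 94.1 ± 8.57 with memantine and 144 ± 70.7 with vehicle, a log2 fold change of -0.48 (-1.04 to 0.080, adjusted p = 0.431). Without vehicle replicate 3 the log2 fold changes were -0.29 for Ifitm3 and -0.28 for Irf7. Of the other 7 members 5 were below 0, and the median of the 9 was -0.13, against -0.0072 for all genes. Without the choroid-rich libraries it was -0.19, with 0 calls and 1 member, Ifitm3 (-0.64), at an unadjusted p under 0.05. It was -0.32 without vehicle replicate 1 and -0.0096 without vehicle replicate 3.

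The combination against vehicle gives the effect of both drugs. limma, edgeR and DESeq2 each called 0 members, with 1, Stat2, at an unadjusted p under 0.05, and limma called 90 of all genes (0.543%; 0.139% higher and 0.404% lower), with 14.2% at an unadjusted p under 0.05. Stat2 averaged 508 ± 78.0 normalised counts with the combination and 429 ± 47.7 with vehicle (SD, n = 6 each). Its log2 fold change was 0.24 (95% interval 0.023 to 0.45), higher than the vehicle mean in 5 of 6 libraries, and failed the correction in limma (adjusted p = 0.292). Of the 9 members 7 had fold changes above 0, from -0.22 (Irf7) to 0.33 (Trim30a). The median was 0.12, against -0.00066 for all genes, and 0.030 with 5 above 0 without the choroid-rich libraries. It was -0.024 without vehicle replicate 1 and 0.24 without vehicle replicate 3. The 3 comparisons with vehicle share the same 6 vehicle libraries, so their signs are not independent of one another.

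Against each drug alone, the combination likewise gave no call among the members. In combination against sarcosine, limma, edgeR and DESeq2 each called 0 members, with 0 at an unadjusted p under 0.05, and limma called 0 of all genes (0%; 1443, or 8.7%, had an unadjusted p under 0.05). DESeq2 gave no adjusted p for 2 of the 9 members here. The members lay between -0.082 (Ifit1) and 0.19 (Oasl2), with a median of 0.12, against -0.00056 for all genes, and 95% intervals from -0.76 to 0.92. The median was 0.20 without the choroid-rich libraries, 0.28 without sarcosine replicate 1, each with 9 of 9 above 0, and 0.025 without sarcosine replicate 3, with 6 above 0. In combination against memantine the 3 tools again called 0, with 2 members, Ifitm3 and Trim30a, at an unadjusted p under 0.05, and limma called 9 of all genes (0.0543%), with 7.72% at an unadjusted p under 0.05. Ifitm3 averaged 380 ± 90.3 normalised counts with the combination and 245 ± 69.7 with memantine (SD, n = 6 each), a log2 fold change of 0.64 (95% interval 0.085 to 1.20, adjusted p = 0.529 in limma). Trim30a averaged 83.5 ± 16.4 with the combination and 61.9 ± 10.1 with memantine, a log2 fold change of 0.42 (0.022 to 0.81, adjusted p = 0.604 in limma). In both genes 6 of 6 combination libraries exceeded the memantine mean. The median of the 9 was 0.15, against -0.0050 for all genes, and 0.17 without the choroid-rich libraries, where 0 were called. Over all libraries left out in turn it ran from 0.13 (without combination replicate 4) to 0.28 (without memantine replicate 3), with 6 to 9 members above 0. These comparisons share the combination libraries with each other.

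The interaction asks whether sarcosine acts differently when memantine is present: it is the difference between combination and memantine minus that between sarcosine and vehicle. limma, edgeR and DESeq2 called 0 members, with 0 at an unadjusted p under 0.05 in each, and limma called 301 of all genes (1.82%; 0.579% higher and 1.24% lower). Of all genes, 16.8% had an unadjusted p under 0.05 in limma. All 9 estimates were above 0, from 0.035 (Stat2) to 0.68 (Ifitm3), with a median of 0.22, against 0.012 for all genes, 51.6% of which were above 0. The members move together across libraries, so these 9 signs are not 9 separate observations. The median was 0.34 without the choroid-rich libraries and 0.36 without sarcosine replicate 1, each with 0 calls and 1 member, Ifitm3, at an unadjusted p under 0.05. Over all libraries left out in turn it ran from 0.12 (without sarcosine replicate 6) to 0.40 (without vehicle replicate 1), with 6 to 9 members above 0. Ifitm3 had an interaction of 0.68 (95% interval -0.11 to 1.46, adjusted p = 0.394 in limma), and 0.44 without vehicle replicate 3. With the level of cortical neuron markers as a covariate, added after the data had been seen, its interaction was 0.90 and was called (adjusted p = 0.0235), in a fit that called 1895 of all genes (11.4%). In no comparison were 2 groups of any member clear of each other, where 4.11% (sarcosine against vehicle), 2.20% (memantine against vehicle), 1.15% (combination against vehicle), 0.386% (combination against sarcosine) and 0.531% (combination against memantine) of all genes were.

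**Figure D2:**
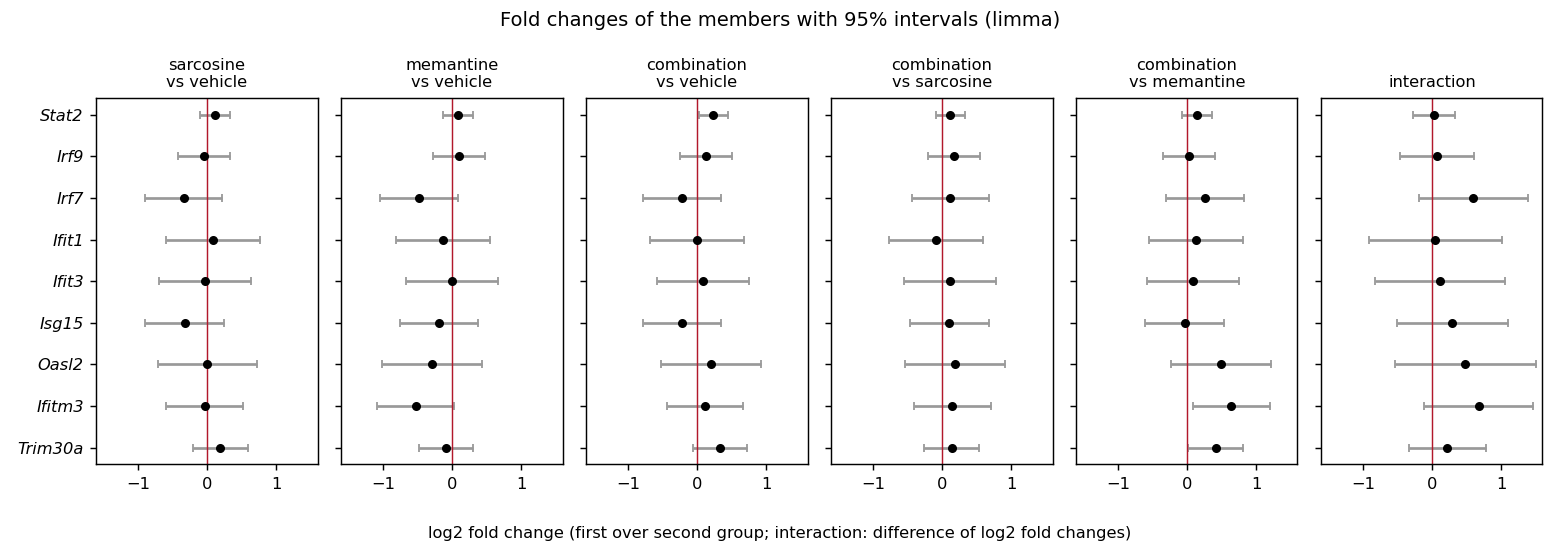
Log2 fold changes (x axis; first over second group, or the difference of 2 fold changes for the interaction) of the 9 members (rows) in the 6 comparisons, with 95% intervals from limma. Nearly all intervals cross 0; those of Stat2 in combination against vehicle and of Ifitm3 and Trim30a in combination against memantine do not, at adjusted p-values of 0.292, 0.529 and 0.604.

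Most of the variation of these genes lay within the groups. Their residual SD on the log2 scale had a median of 0.49, against 0.25 for all tested genes, and the differences between groups held a median of 8.11% of their variance, against 15.3% for all tested genes. The share ran from 0.607% for Ifit3 to 22.8% for Ifitm3. Trim30a (22.2%) and Stat2 (20.7%) were, like Ifitm3, above the median of all tested genes. The high libraries were largely the same for every member. Sarcosine replicate 1 held the highest value of its group for 9 of 9 members, vehicle replicate 3 for 7, and memantine replicate 3 and combination replicate 1 for 6 each. Stat2 and Irf9 were highest in vehicle replicate 5 in place of replicate 3. At the low end, vehicle replicate 1 held the lowest value of its group for 6 members, and combination replicate 3 and memantine replicate 6 for 5 each. The deviation from the group mean reached 1.31 (log2) for Oasl2 in vehicle replicate 3 and 1.23 for Ifit3 in sarcosine replicate 1.

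**Figure D3:**
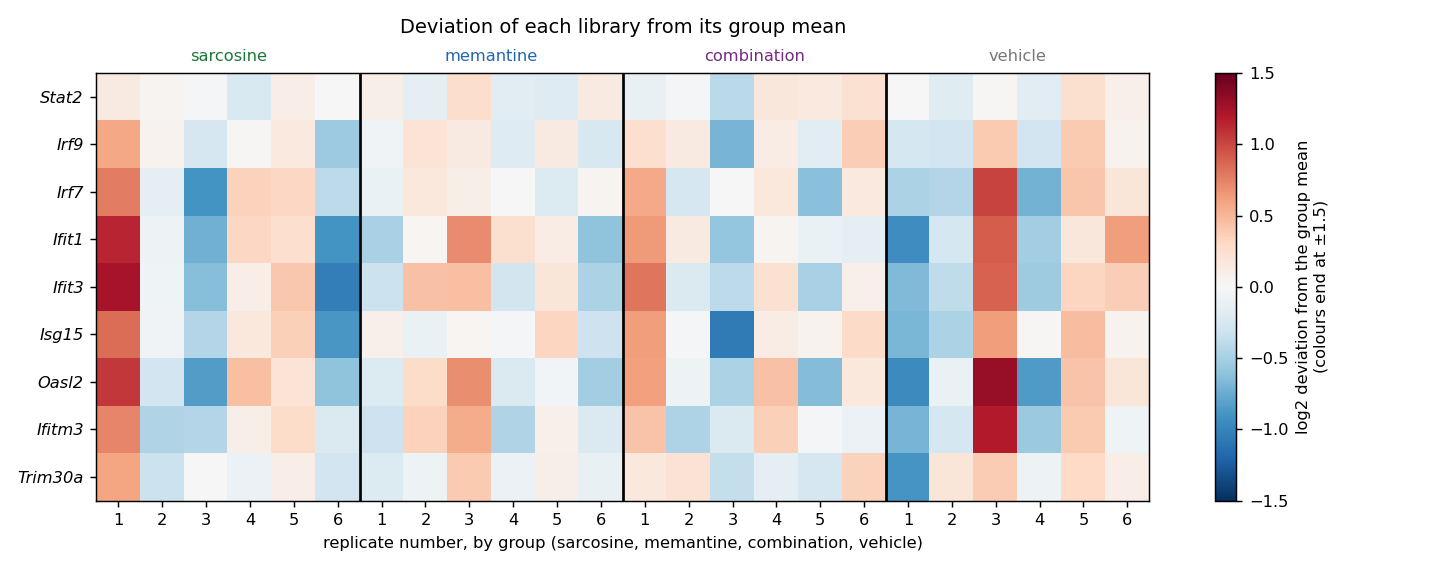
Log2 deviation of each library from its group mean (colour, red above and blue below) for the 9 members (rows) and 24 libraries (columns, by group and replicate number). Sarcosine replicates 1 (1.23 for Ifit3) and 5, memantine replicate 3 and vehicle replicates 3 and 5 are above their group means for every member. Sarcosine replicate 6 and combination replicate 3 are below theirs for every member, and the other columns are mixed. The row of Stat2 is the palest, with deviations of -0.40 to 0.27.

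Correlations between members were computed over the 24 libraries on deviations from the group means, with 100000 permutations of libraries within groups and adjustment over the 36 pairs. The 28 pairs without Stat2 had Pearson r of 0.539 to 0.921 (median 0.774) and Spearman rho of 0.503 to 0.943. All 28 passed at an adjusted permutation p under 0.05, the largest being 0.0328 for Pearson and 0.0290 for Spearman. The highest was Ifit3 with Oasl2 at r = 0.921, followed by Ifit1 with Ifit3 at 0.913. Isg15 with Irf9 reached 0.902, and the lowest of these pairs was Irf7 with Trim30a at 0.539. Oasl2, Irf7 and Irf9, whose windows held no ISRE match, were correlated at 0.898 (Oasl2 with Irf7), 0.800 (Oasl2 with Irf9) and 0.694 (Irf7 with Irf9). Without the 2 libraries farthest from the median, the 28 pairs had r of 0.541 to 0.927, and without the choroid-rich libraries 0.445 to 0.902.

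Stat2, which held an ISRE match, was the exception. Its 8 pairs had r of 0.194 to 0.509, and 1 of 8 passed, that with Irf9 (r = 0.509, rho = 0.474, adjusted permutation p = 0.0233 for Pearson). The r of Stat2 with Irf9 was 0.344 without the 2 farthest libraries and 0.527 without the choroid-rich libraries. With the levels of cortical, choroid and oligodendrocyte markers removed it was 0.582. The level of Stat2 varied with a residual SD of 0.18, below the 0.25 of all tested genes.

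Markers of the tissue makeup moved with the members within groups. In the 99 relations of 9 members with 11 marker lists, all 8 members other than Stat2 fell where cortical excitatory neuron markers were higher, with Pearson r of -0.788 to -0.577, Spearman rho of -0.767 to -0.521 and adjusted permutation p of at most 0.0219 for Pearson. Without the 2 libraries farthest from the median of the marker sum r was -0.693 to -0.376, and without the choroid-rich libraries -0.724 to -0.383. The 8 choroid plexus markers, 6 of them above the expression filter, summed to 167 to 40748 with sarcosine, 127 to 56280 with memantine, 172 to 34865 with the combination and 105 to 756 with vehicle. They rose with the same 8 members at r of 0.524 to 0.737 and rho of 0.518 to 0.702 (adjusted permutation p of at most 0.0448 for Pearson). The r was 0.352 to 0.676 without the 2 farthest libraries and 0.374 to 0.650 without the 3 rich libraries. The sum of 7 oligodendrocyte markers rose with Ifit1, Ifit3, Oasl2, Irf7 and Ifitm3, with r up to 0.682, and by rank with 2 members. The r of the members named was 0.363 to 0.565 without the choroid-rich libraries. Striatal markers rose with Ifit3, Oasl2 and Ifitm3 by Pearson r (up to 0.597) and with 0 members by rank. Leaving out the choroid-rich libraries gave r of 0.291 (Ifit3) to 0.409 (Ifitm3) with the striatal markers. Stat2 had r of -0.040 with the cortical list and 0.149 with the choroid list. The part of the tissue makeup in the variation of the members was not tested.

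**Figure D4:**
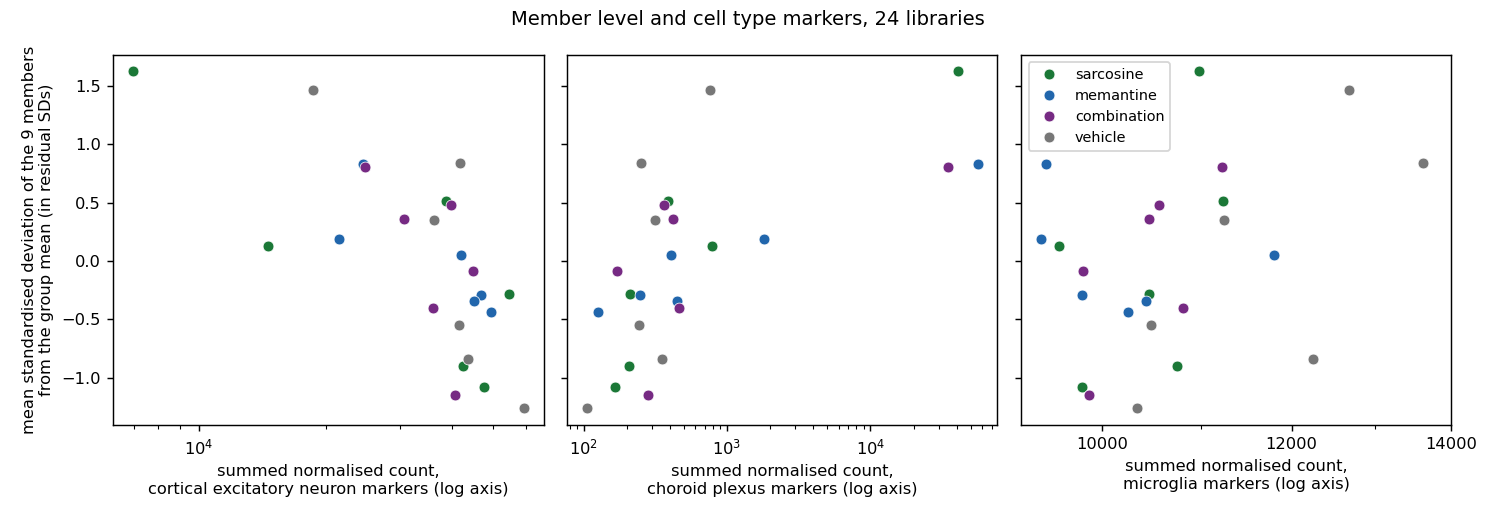
Mean deviation of the 9 members from their group means, in units of each gene's residual SD (y axis), against the summed normalised counts of markers of cortical excitatory neurons, choroid plexus and microglia (x axes, logarithmic) in 24 libraries, coloured by group. The highest member level, 1.62 in sarcosine replicate 1, has the lowest cortical sum, 6967; vehicle replicate 3, at 1.46, has a choroid sum of 756.

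Removing the levels of the cortical, choroid and oligodendrocyte markers left r of 0.285 to 0.867 (median 0.611) among the 28 pairs. Vehicle replicate 3, high for 7 members, was no choroid-rich library and had the highest oligodendrocyte sum, 298260. Microglial markers, 16 of 17 in the table, summed to 9593 to 11234 with sarcosine, 9420 to 11795 with memantine, 9811 to 11224 with the combination and 10338 to 13627 with vehicle. They were related to Isg15 (r = 0.641, rho = 0.684, adjusted permutation p = 0.00460; 0.632 without the 2 farthest libraries) and to no other member at that threshold, with r of 0.207 (Stat2) to 0.457 (Irf9) for the other 8. In sarcosine against vehicle 7 of these 16 microglial genes were lower in limma, against 4.62% of all genes. In combination against vehicle 1 was lower, against 0.404%, and in the interaction 4 were higher, against 0.579%. Their part in the values of Isg15 was not tested.

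Blood-derived immune cells also carry interferon-stimulated transcripts. Their 14 markers summed to 91.7 to 424 normalised counts with sarcosine, 29.4 to 160 with memantine, 99.2 to 314 with the combination and 82.1 to 183 with vehicle, and 5 of the 14 passed the expression filter. Cd4 made up 45.5% of the sum, while Cd3e, a subunit of the T cell receptor complex, had 0 to 12.2. The sum rose with Ifit1, Ifit3, Oasl2, Irf7 and Ifitm3 (r of 0.577 to 0.763), and its part was not tested. For the same members r was 0.374 to 0.677 without the choroid-rich libraries. Of those libraries, sarcosine replicate 1 and combination replicate 1 held the highest sums of their groups, 424 and 314. Endothelial markers (r = 0.508) and olfactory bulb markers (r = 0.542) passed with Isg15 alone by Pearson r. By rank the olfactory bulb list passed with Isg15 again (rho = 0.586), and the endothelial list did not (rho = 0.363). Without the 2 farthest libraries, r with Isg15 was 0.572 for the olfactory bulb list and 0.333 for the endothelial list. Markers of astrocytes, border macrophages and vascular smooth muscle with leptomeninges passed with 0 members. For the smooth muscle and leptomeninges list, r with the 8 members other than Stat2 was 0.238 to 0.400 over 24 libraries. Spearman rho was 0.042 to 0.263. The r was 0.525 to 0.679 without the choroid-rich libraries, and -0.165 to 0.167 without the 2 libraries farthest from the median of the marker sum. The part of this list was not tested.

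The interferons themselves were almost unread. The 12 genes for type I interferons and interferon-γ had 17 reads in all 24 libraries together, 0 to 3 per library, and 6 of them had no read. No ligand passed the expression filter. Of the 17 reads, 5 were from sarcosine libraries, 1 from memantine, 2 from the combination and 9 from vehicle.

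Of the receptors and kinases, all 7 were tested, and 2 rose in sarcosine against vehicle, where 4.72% of all genes were called higher. Jak2, the kinase of the interferon-γ receptor, averaged 930.04 ± 61.5 normalised counts with sarcosine and 737 ± 38.5 with vehicle (SD, n = 6 each), a log2 fold change of 0.33 (adjusted p = 0.0265 in limma). Jak1, which serves both receptor types, averaged 3196 ± 439 with sarcosine and 2640.3 ± 179 with vehicle, a change of 0.27 (adjusted p = 0.0320 in limma). Neither call held once the trend on transcript length and GC content was removed, where Jak2 had 0.21 (adjusted p = 0.293) and Jak1 0.16 (adjusted p = 0.455). The call on Jak2 was also lost without sarcosine replicate 1 or 5 or vehicle replicate 1 or 6 (0.31 to 0.33), and that on Jak1 without sarcosine replicate 2, 3 or 6 or vehicle replicate 3, 5 or 6 (0.22 to 0.26). The receptor subunits Ifnar1 and Ifnar2 ranged from 640 to 930.4 and from 112 to 184 normalised counts over the 24 libraries. No receptor or kinase was called in another comparison.

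Among 14 sensors and adaptors, Tbk1, the kinase that activates IRF3 after nucleic acid sensing, rose with sarcosine, as did 4.72% of all genes. It averaged 788 ± 49.8 normalised counts with sarcosine and 629 ± 22.1 with vehicle (SD, n = 6 each), a log2 fold change of 0.32 (95% interval 0.21 to 0.44, adjusted p = 0.00152 in limma). After removal of the length and GC trend the value was 0.32 and the call held (adjusted p = 0.0341). With memantine it averaged 739 ± 40.9 and with the combination 723 ± 50.6, changes of 0.23 (adjusted p = 0.0888) and 0.20 (adjusted p = 0.0816) from vehicle that missed the threshold. Its interaction was -0.36 (adjusted p = 0.0297 in limma), where 1.24% of all genes were called lower. That call was lost without the choroid-rich libraries (-0.37, adjusted p = 0.149), after removal of the length and GC trend (-0.39, adjusted p = 0.206), with no filter (adjusted p = 0.0938) and with upper-quartile scaling (adjusted p = 0.0633). Leaving out sarcosine replicate 2, 3 or 5, memantine replicate 3, 4 or 6, combination replicate 1 or 4 or vehicle replicate 3 or 6 also ended it (-0.37 to -0.33). The RNA sensors Ifih1 and Rigi and the adaptor Mavs were not called in any comparison.

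Of 10 tested negative regulators and genes of nucleic acid clearance, Rnaseh2c, a subunit of the RNase that removes RNA from DNA hybrids, fell in 2 comparisons. It averaged 245 ± 37.0 normalised counts with sarcosine, 247 ± 32.04 with the combination and 347 ± 36.1 with vehicle (SD, n = 6 each). The log2 fold change was -0.51 with sarcosine (adjusted p = 0.00284 in limma) and -0.50 with the combination (adjusted p = 0.0427 in limma), both against the same vehicle libraries. In these comparisons 4.62% and 0.404% of all genes were called lower. Removal of the length and GC trend ended both calls, at -0.29 (adjusted p = 0.141) with sarcosine and -0.38 (adjusted p = 0.124) with the combination. The call with the combination was also lost, at values of -0.52 to -0.42, without sarcosine replicate 3 or 6, memantine replicate 1, 2 or 4, combination replicate 2, 3, 5 or 6 and vehicle replicate 1, 3, 4 or 6. Trex1 was listed at 0 in every library. Socs3, a feedback inhibitor, averaged 166 ± 103 with the combination and 63.1 ± 12.6 with memantine, a change of 1.12 that was not called (adjusted p = 0.404 in limma).

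Of 48 other interferon-stimulated genes, 44 were tested. In sarcosine against vehicle 1 was higher and 1 lower, against 4.72% and 4.62% of all genes, and in the other comparisons limma called 0, with 2 to 7 at an unadjusted p under 0.05. In those comparisons 7.72% to 16.8% of all genes had an unadjusted p under 0.05. Adar, the enzyme that edits adenosine in double-stranded RNA, averaged 2912 ± 384 with sarcosine and 2204 ± 236 with vehicle, a log2 fold change of 0.40 (adjusted p = 0.0105 in limma). Shisa5, a protein of the endoplasmic reticulum, averaged 981 ± 128 with sarcosine and 1195 ± 115 with vehicle, a change of -0.29 (adjusted p = 0.0289 in limma). Without the length and GC trend these were 0.27 (adjusted p = 0.173) and -0.17 (adjusted p = 0.630). The call on Shisa5 was also lost without sarcosine replicate 1, 4 or 5 or vehicle replicate 1 or 5 (-0.29 to -0.23), and without the choroid-rich libraries (-0.23, adjusted p = 0.0726). Against vehicle, the median log2 fold change of the 44 was -0.046 for sarcosine (21 above 0), -0.21 for memantine (10 above 0) and 0.030 for the combination (24 above 0). Ddx60, a helicase, had the smallest p of the list in combination against memantine, with 48.1 ± 20.4 with the combination and 24.7 ± 14.1 with memantine, a change of 1.01 that was not called (adjusted p = 0.435 in limma). Of the 7 other STAT and IRF factors and the 4 genes of ISG15 conjugation, limma called 0 in every comparison, with 0 to 2 factors and 0 to 1 conjugation genes at an unadjusted p under 0.05. Over the 6 comparisons 7.72% to 22.3% of all genes reached that level. Of the 86 genes tested over all these lists, edgeR called 6 and DESeq2 8 in sarcosine against vehicle, where they called 9.74% and 12.9% of all genes. In memantine against vehicle edgeR called 0 and DESeq2 3, against 0.0181% and 2.56% of all genes. Stat3, an acute-phase factor, averaged 1062.5 ± 104 with sarcosine and 882 ± 63.1 with vehicle, a change of 0.27 that missed the threshold (adjusted p = 0.0569 in limma).

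Wider genes were also ranked by their likeness to the members, the Pearson r with the mean deviation of the 9 over 24 libraries, within groups. Libraries share depth and tissue makeup, so these r are descriptions. The median was 0.708 for the 44 other interferon-stimulated genes and 0.025 for all tested genes, of which 5% exceeded 0.658. Eif2ak2, the RNA-activated kinase PKR, had r = 0.919, Lgals3bp 0.901, Parp12 0.897 and Bst2, which tethers budding virus, 0.892. In the other lists, Usp18, which removes ISG15 from proteins and dampens the receptor, had r = 0.887, Ifih1 0.845, Rigi 0.836 and Samhd1, a nucleotide hydrolase, 0.791. Of the genes called above, Jak1 (-0.648), Shisa5 (-0.627), Adar (-0.489), Tbk1 (-0.404) and Rnaseh2c (-0.292) ran against the members, and Jak2 had r = 0.202. None of these lay below -0.697, under which 5% of all tested genes fell. Ifnar2 had 0.724 and Ifnar1 0.322.

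**Figure D5:**
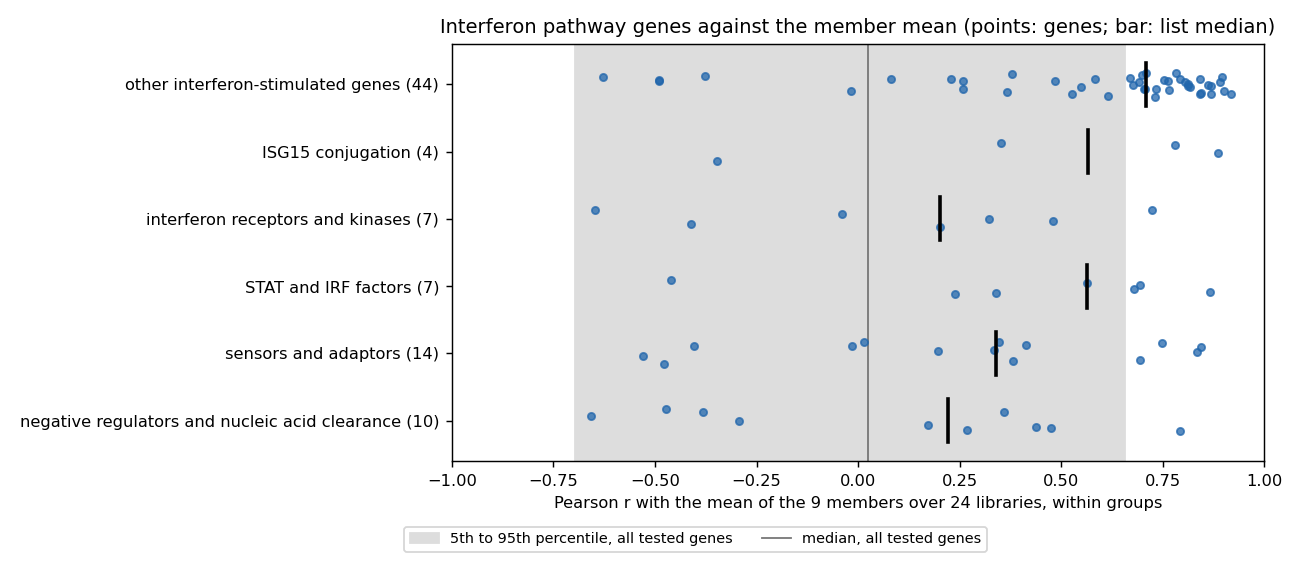
Pearson r of tested interferon pathway genes (points, 1 per gene) with the mean of the 9 members over 24 libraries, within groups (x axis), by list (rows, number of genes in brackets), with list medians as bars and the 5th to 95th percentile of all tested genes in grey. Most of the 44 other interferon-stimulated genes lie to the right of the grey band's end at 0.658, with a median of 0.708.

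Outside these lists, the 5 genes most like the member mean were Rnf213 (r = 0.931), H2-K1 (0.906), H2-D1 (0.885), Kdelr2 (0.868) and Igtp (0.862). H2-K1 and H2-D1 are the classical class I histocompatibility genes, Igtp is an interferon-inducible GTPase, Rnf213 is a large ubiquitin ligase and Kdelr2 returns proteins to the endoplasmic reticulum. H2-K1 ranged from 666 to 1860.3 normalised counts and H2-D1 from 961 to 2940.4. Without the 2 libraries farthest from the median, r was 0.914 for Rnf213, 0.854 for H2-K1, 0.832 for H2-D1, 0.803 for Kdelr2 and 0.883 for Igtp. None of the 5 was called in any comparison.

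Counting limits touch several members. Reads of Ifit3 and Ifit3b, of the Ifitm genes, of the Oasl genes and of the Trim30 family may be shared between near-identical copies, and how such reads were assigned is not given in the sources used here. In GENCODE vM21, Irf7 overlaps Phrf1 on the opposite strand, Irf9 overlaps Rnf31 on the same strand and Trim30a overlaps Gm25405 on the opposite strand. The labels do not say that the libraries keep strand, so reads in these overlaps cannot be told apart.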

How the data were processed

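Whole-tissue RNA of 24 punches was sequenced after purification with RNeasy columns and NEBNext Ultra II library preparation, per the labels. The submitters' processing notes name FastQC, STAR, featureCounts 1.6.0, DESeq2 1.42.1 and the build mm39. The annotation and the handling of multi-mapping reads are not given in the sources used here. The values deposited by the authors are a signal: gene read counts divided by 1 size factor per library. Whole reads were recovered from the steps of each library (100% of values whole within 0.01 of a read).

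From these, log2(value + 1) was fitted with limma 3.58.1 (trend, two-sided, all 24 libraries; R 4.3.3) over the genes that reached 10 in 6 or more libraries, with Benjamini-Hochberg adjustment and a threshold of 0.05. Fold changes of low genes are understated on this scale. The alternatives were count tests of the recovered reads (edgeR 4.0.16; DESeq2 1.42.0), and other pseudocounts, filters, scalings, library weights, a length and GC trend, a replicate block and leaving out each library. Correlations used deviations from group means and permutations within groups (scipy 1.17.1). Lengths came from GENCODE vM21, and promoter sequences from RefSeq, which matched 9 of 9 members. Named were all 9 members, the called genes of each interferon list (up to 4 with the smallest p per comparison), some of those with the smallest p where none was called, and the 5 genes outside the lists most like the members. Receptor subunits, sensors and the genes given only by their likeness were added for their roles or after their values were seen. The members and lists were chosen with earlier results of these data known. The values of 1 gene of the wider lists are not reported here.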

Additional observations from a re-analysis of the deposited data

How the results depend on the processing

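In 38 alternatives, 2097 tests of members with those of the reported fit gave 1 call: with the cortical marker level as a covariate, added after the data had been seen, 1 member (Ifitm3) was called in the interaction. Of these tests 4 had no adjusted p, 2 each from DESeq2 in memantine against vehicle and in combination against sarcosine. Of 2043 alternative values of the members, 1934 kept direction and side of the threshold and 108 reversed, in fold changes whose intervals hold 0; the cause was not tested. With library weights, Ifit1 had -0.36 (sarcosine against vehicle), -0.026 (combination against vehicle) and 0.34 (combination against sarcosine), Oasl2 -0.31 (sarcosine against vehicle) and Irf2 -0.010 (combination against sarcosine). Without the choroid-rich libraries, in the same order, Ifit1 had -0.15, -0.12 and 0.021 and Oasl2 -0.21, and Ifit3 -0.078 (combination against vehicle). With the cortical covariate Ifit1 had -0.21, -0.062 and 0.15 and Oasl2 -0.32. In combination against vehicle, Ifit1 had -0.00089 with a pseudocount of 5. edgeR and DESeq2 gave Ifit1 -0.097 and -0.093 and Ifitm3 -0.0089 and -0.0060 in combination against vehicle, Ifit3 0.041 and 0.046 and Oasl2 -0.062 and -0.058 in sarcosine against vehicle, Ifit3 -0.0021 and -0.0030 in combination against sarcosine, and Isg15 0.046 and 0.042 in combination against memantine. With the length and GC trend removed, Ifit1 had -0.0028 (combination against vehicle) and -0.022 (interaction), Ifit3 0.066 (sarcosine against vehicle), 0.087 (memantine against vehicle) and -0.036 (interaction), Isg15 -0.020 (combination against sarcosine), Ifitm3 0.18 (sarcosine against vehicle) and Pias1 0.00038 (interaction). Upper-quartile scaling gave Ifit3 0.015 (memantine against vehicle).

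Leaving out each library in turn called 0 members in every comparison. Signs changed in 21 results. In sarcosine against vehicle the ranges were -0.15 to 0.27 (Ifit1), -0.28 to 0.18 (Ifit3), -0.21 to 0.27 (Oasl2), -0.16 to 0.068 (Irf9) and -0.18 to 0.20 (Ifitm3). In memantine against vehicle they were -0.32 to 0.050 (Ifit1) and -0.13 to 0.18 (Ifit3). In combination against vehicle they were -0.18 to 0.19 (Ifit1), -0.078 to 0.26 (Ifit3) and -0.024 to 0.36 (Ifitm3). In combination against sarcosine they were -0.26 to 0.15 (Ifit1), -0.093 to 0.36 (Ifit3), -0.066 to 0.32 (Isg15) and -0.059 to 0.27 (Irf7). In combination against memantine they were -0.077 to 0.18 (Ifit3), -0.15 to 0.18 (Isg15) and -0.039 to 0.18 (Irf9). In the interaction they were -0.13 to 0.28 (Ifit1), -0.092 to 0.36 (Ifit3), -0.014 to 0.12 (Stat2) and -0.032 to 0.22 (Irf9).

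Counts over all genes moved far more. Over all alternatives limma, edgeR or DESeq2 called 184 to 3379 genes in sarcosine against vehicle, 1 to 424 in memantine against vehicle, 1 to 536 in combination against vehicle, 0 to 193 in combination against sarcosine, 3 to 61 in combination against memantine and 0 to 1895 in the interaction. The deviations of same-numbered libraries of different groups had a median r of 0.11, against -0.016 for libraries of other numbers. The r of same-numbered pairs ran from -0.75 to 0.73, with 18 of 36 pairs over 0.1. Of 24 libraries, 6 correlated best with their own number. With the replicate block 0 members were called in every comparison, and Shisa5 in sarcosine against vehicle (adjusted p = 0.0510) and Rnaseh2c in combination against vehicle (adjusted p = 0.0545) lost their calls in limma. In limma the calls of Jak1, Shisa5 and Rnaseh2c (combination against vehicle) were also lost with no filter (adjusted p = 0.0790, 0.0685 and 0.0905), with upper-quartile scaling (0.0968, 0.134 and 0.0799) and in fits of only the groups compared (0.0998, 0.0888 and 0.226), and that of Jak2 with no filter (0.0598). Members with few reads limit the precision: Isg15 had 24 to 117 reads per library.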
